A study of Caenorhabditis elegans with 2 samples.

Results

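Nuclear genes for the mitochondrial ribosome and the respiratory chain were examined for peaks of CEH-34, a sine oculis family homeodomain transcription factor of C. elegans known for its role in pharyngeal neurons. The 109 members were all nuclear protein-coding genes of the WBcel235 annotation whose symbols start with mrpl-, mrps-, nuo-, sdha-, sdhb-, sdhd-, ucr-, cox- or atp-, together with isp-1, cyc-1, gas-1 and mev-1, out of 19973 nuclear protein-coding genes. They comprised 70 genes of the mitochondrial ribosome (41 mrpl genes of the large subunit and 29 mrps genes of the small subunit) and 39 genes of the respiratory chain (7 of complex I, 5 of complex II, 7 of complex III, 15 of complex IV and 5 of complex V). Membership was set by symbol alone and used no measured value.

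The data are chromatin immunoprecipitation sequencing (ChIP-seq) peak lists from whole hermaphrodite late embryos, taken 3.5 hours after synchronisation by egg bleaching. All embryos were of strain OP524, genotype unc-119(tm4063) III; wgIs524, in which an integrated transgene makes CEH-34 with a GFP-FLAG tag at the C-terminus, and an antibody against GFP was used. There was 1 group with 2 biological replicates and no untagged or second condition to compare with, so signal from the transgenic strain that does not depend on CEH-34 cannot be told apart from CEH-34 signal here. On ce11 coordinates, the list thresholded by the irreproducible discovery rate (a measure of how repeatable peak ranks are between replicates) held 2490 nuclear peaks. The candidate lists, which also hold background, had 29396 nuclear peaks for both replicates together (the pooled list), 21705 for replicate 1 and 23491 for replicate 2. A gene was called bound when the summit of a thresholded peak lay no more than 1000 bp from a 5′ end of one of its protein-coding transcripts.

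Mitochondria carry their own small genome, which codes for a few subunits of respiratory complexes I, III, IV and V. Those subunits are made on the mitochondrial ribosome, whose proteins are encoded in the nucleus, as are most subunits of the respiratory complexes and all of complex II. Complexes I and II pass electrons from NADH and succinate to ubiquinone, complex III passes them to cytochrome c, complex IV (cytochrome c oxidase) passes them to oxygen, and complex V (ATP synthase) uses the resulting proton gradient to make ATP.

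The DNA under the peaks is shown first for 9 bound members, taken from windows outside annotated UTRs on chromosomes II to V and X. They are the strongest such window of each class (cox-5A, atp-2, nuo-1, sdha-1, isp-1 and mrpl-37), the next strongest of complex IV (cox-6B and cox-6C), and mrpl-12, added because it holds both 7-mers described after the sequences. Their signals span strong and weak peaks, and those of sdha-1, isp-1 and mrpl-12 lie below the thresholded median of 114.4. Each line gives the forward strand of ce11 from 50 bp before to 50 bp after the summit, taken from the RefSeq sequence of WBcel235. Capitals mark matches on either strand to GAGAGA (a GA repeat), TGATAC (the sine oculis core), TCAGGTT (a MEF3-type site), CAGCTG (an E-box), CTGCGTCT, AAGTGCG or AAACGCG.
cox-5A, chrIII:12905126-12905226: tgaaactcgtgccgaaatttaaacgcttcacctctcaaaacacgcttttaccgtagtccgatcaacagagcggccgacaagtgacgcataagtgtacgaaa
cox-6B, chrIII:2786000-2786100: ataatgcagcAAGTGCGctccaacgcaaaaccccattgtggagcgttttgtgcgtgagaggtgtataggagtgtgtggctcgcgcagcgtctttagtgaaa
cox-6C, chrIV:126367-126467: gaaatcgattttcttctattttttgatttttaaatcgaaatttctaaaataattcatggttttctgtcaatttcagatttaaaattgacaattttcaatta
atp-2, chrIII:5228107-5228207: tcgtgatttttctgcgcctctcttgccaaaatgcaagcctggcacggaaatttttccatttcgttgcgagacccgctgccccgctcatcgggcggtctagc
nuo-1, chrII:11097524-11097624: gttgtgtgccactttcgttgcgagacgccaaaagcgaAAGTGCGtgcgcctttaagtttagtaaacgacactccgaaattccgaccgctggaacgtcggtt
sdha-1, chrX:8546162-8546262: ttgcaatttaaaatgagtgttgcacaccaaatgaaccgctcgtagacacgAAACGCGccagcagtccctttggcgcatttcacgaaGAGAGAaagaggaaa
isp-1, chrIV:8136270-8136370: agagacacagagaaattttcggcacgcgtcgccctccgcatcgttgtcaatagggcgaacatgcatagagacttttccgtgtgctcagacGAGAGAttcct
mrpl-37, chrII:13575770-13575870: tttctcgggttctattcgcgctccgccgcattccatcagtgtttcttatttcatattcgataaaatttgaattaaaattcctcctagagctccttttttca
mrpl-12, chrIII:10707167-10707267: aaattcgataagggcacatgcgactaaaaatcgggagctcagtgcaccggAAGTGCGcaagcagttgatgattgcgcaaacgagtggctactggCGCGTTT

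None of the windows of the 28 bound members held the sine oculis core TGATAC, the site TCAGGTT or the E-box CAGCTG, which were found in 3.21%, 1.53% and 3.94% of the 2490 nuclear thresholded windows. At shares this low, finding none in 28 windows does not set the members apart. The GA repeat GAGAGA was in 2 of 28 windows (7.14%), those of sdha-1 and isp-1, against 28.8% of all windows, and CTGCGTCT was in 1 (3.57%), that of mrps-7, against 8.27%. For these motifs the windows near a coding 5′ end were not counted apart. The 7-mers AAGTGCG and AAACGCG were picked because they occurred in the most member windows, so their counts are a description of these windows. AAGTGCG was in 8 windows (28.6%), those of atp-5, cox-6B, cyc-1, mev-1, mrpl-12, mrpl-45, mrpl-47 and nuo-1. It was in 3.53% of all windows and in 5.23% of the 1414 whose summits lay within 1000 bp of a coding 5′ end. AAACGCG was in 7 (25%), against 4.3% of all windows and 6.51% of those near a coding 5′ end. The G+C content of the member windows had a median of 50.5%, near the 49.5% of all windows. The cox-6C window stood at 19.8%, and no nuclear thresholded window had a lower value, though 1 other had the same.

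Respiratory chain genes had thresholded summits at 16 of 39 members (41.0%, 95% Wilson interval 27.1 to 56.6), and mitochondrial ribosome genes at 12 of 70 (17.1%, 10.1 to 27.6). Over all nuclear protein-coding genes 8.65% were bound, and the interval of the ribosome starts above that share. By complex, 2 of 7 genes were bound in complex I, 2 of 5 in complex II, 3 of 7 in complex III, 6 of 15 in complex IV and 3 of 5 in complex V. Each complex had a higher share than the mitochondrial ribosome, but the intervals of complexes I (8.22 to 64.1%), II (11.8 to 76.9%), III (15.8 to 75.0%), IV (19.8 to 64.3%) and V (23.1 to 88.2%) all overlapped that of the ribosome, and no test of a difference was run. The interval of complex I also holds the 8.65% of all genes. The symbol rule leaves out further complex I genes (6 of 28 bound, 21.4%) and ATP synthase genes (2 of 7 bound, 28.6%). The shares of the complexes and of the respiratory chain therefore cover only the genes that the rule names. Cytosolic ribosomal protein genes, set beside them for scale, had 53 of 78 bound (67.9%). Intervals cover counting error only, over genes that are not independent replicates. All 28 bound members had summits of their own, none shared with another member.

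**Figure D1:**
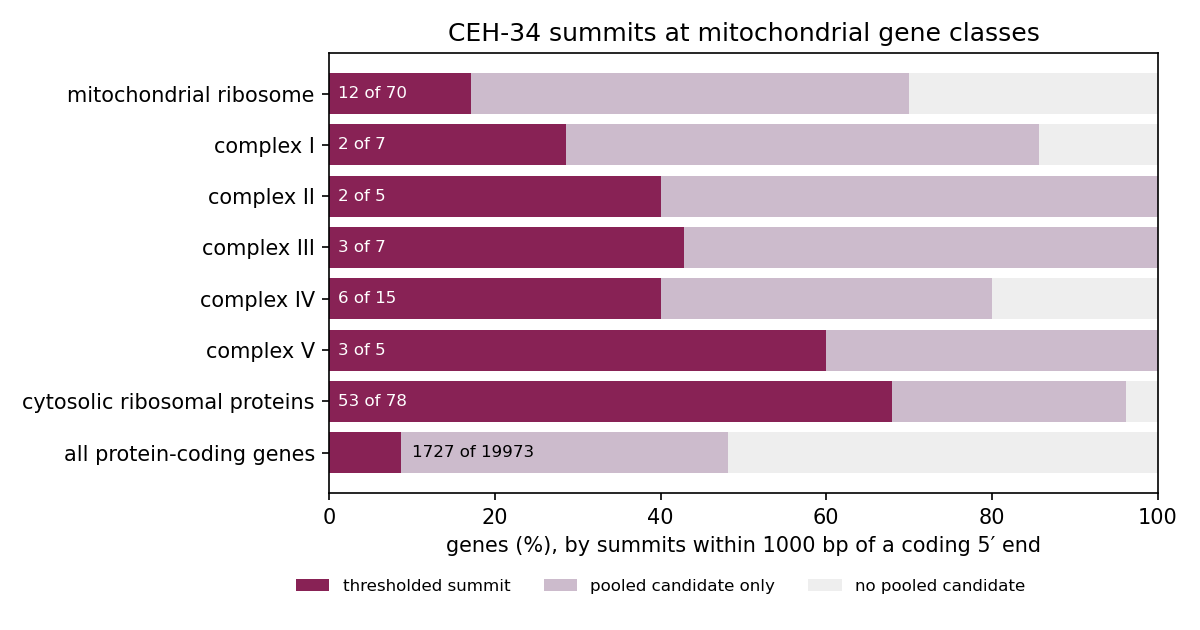
Share of genes in each class with a thresholded summit (dark), a pooled candidate only (pale) or no pooled candidate (grey) within 1000 bp of a coding 5′ end, in percent, with the number bound of the number in the class. The dark bar is 17.1% for the mitochondrial ribosome, between 28.6% and 60% for the respiratory complexes and 8.65% for all genes.

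Candidate peaks, a looser measure, were present in the pooled list at 49 of 70 mitochondrial ribosome genes (70%) and at 35 of 39 respiratory chain genes (89.7%), against 48.2% of all genes. All members of complexes II, III and V had one, as did 6 of 7 in complex I and 12 of 15 in complex IV. The signal value is the authors' own height for a peak, on a scale set per list. Where a candidate was present, the median signal of the strongest one was 37.6 for the ribosome and 72.1 for the respiratory chain, beside 34.7 over all genes with a candidate. Of the members with a candidate, 24.5% in the ribosome and 45.7% in the respiratory chain reached the thresholded list, against 18% over all genes. The respiratory chain as a whole had a higher share than the ribosome in the other candidate counts too, but single complexes did not always: with replicate 1 alone complex I had 3 of 7 (42.9%) and complex II 3 of 5 (60%), and with replicate 2 alone complex I had 4 of 7 (57.1%), each below the ribosome in that list. Within 500 bp, 40 ribosome genes (57.1%) and 30 respiratory genes (76.9%) had a pooled candidate, beside 35.5% of all genes, and within 2000 bp 58 (82.9%) and 39 (100%) had, beside 62.1%. In the list of replicate 1, 43 ribosome genes (61.4%) and 30 respiratory genes (76.9%) had a candidate within 1000 bp, beside 41.6% of all genes, and in that of replicate 2 the counts were 46 (65.7%) and 29 (74.4%), beside 43.4%. No list held a candidate at 12 of the 70 ribosome genes and 2 of the 39 respiratory genes, beside 8187 of all 19973 genes.

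**Figure D2:**
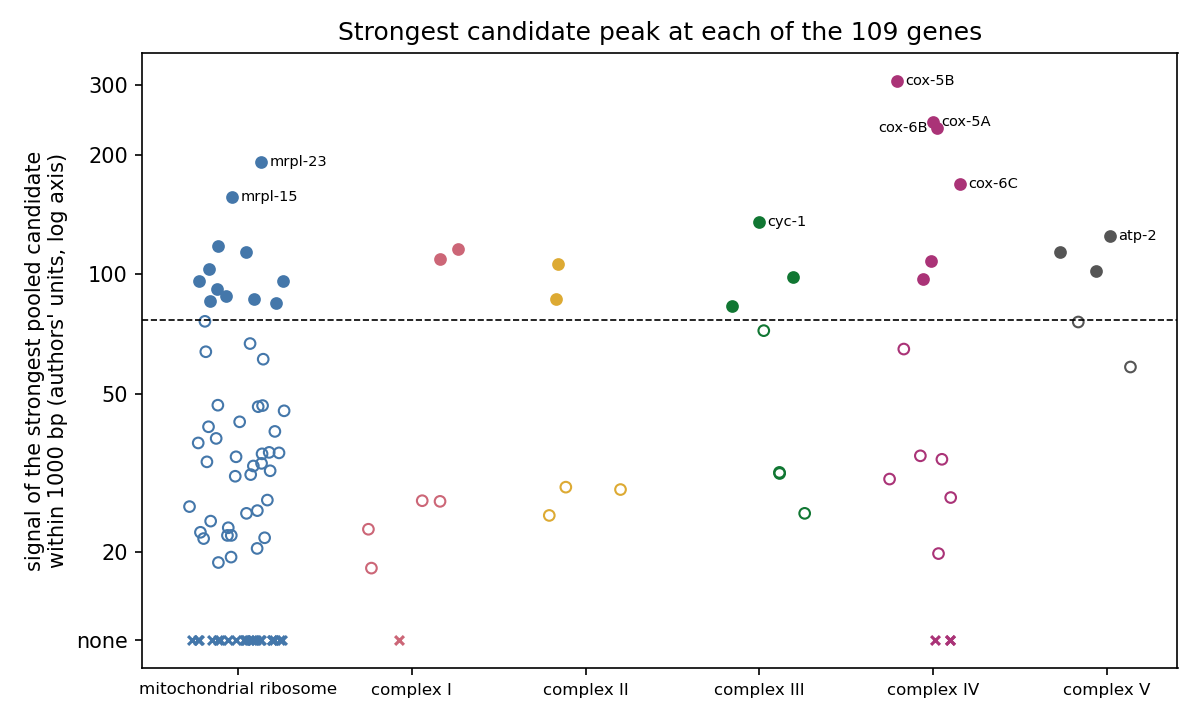
Signal of the strongest pooled candidate within 1000 bp of each of the 109 genes, in the authors' units on a log axis, by class. Filled points are bound genes, open points have a candidate below the thresholded list, crosses have none, the dashed line is the lowest signal of the thresholded nuclear peaks (76.5), horizontal spread within a class carries no meaning, and the top 3 points are the cox-5B, cox-5A and cox-6B genes.

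Among mitochondrial ribosome genes, the large subunit had 9 of 41 bound (22.0%, 12 to 36.7) and the small subunit 3 of 29 (10.3%, 3.58 to 26.4), a difference that was not tested. Beside the 8.65% of all genes, the small subunit was near the background. The strongest peak was at mrpl-23, with a signal of 192.2 in the thresholded list, 93.9 in replicate 1 and 97.1 in replicate 2. Its summit at chromosome I 6212872 lay 987 bp upstream of the mrpl-23 5′ end, in an intron of fars-1, a cytosolic phenylalanyl-tRNA synthetase gene, within 200 bp of the snoRNA gene T08B2.13. The mrpl-15 peak (156.3, with 69 and 84.7 in replicates 1 and 2) lay 637 bp upstream in intergenic space, with no other coding 5′ end within 1000 bp. These 2 genes and mrpl-37 (117.5) were the ribosome members among the 1245 strongest nuclear thresholded peaks. The mrpl-37 summit lay 105 bp from the 5′ end of lin-38 and 752 bp upstream of mrpl-37.

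The other large subunit genes had weaker peaks. At mrpl-12, the relative of the bacterial stalk protein gene, a signal of 113.6 (54.3 and 58.8 in the replicates) was measured 544 bp upstream and 189 bp from Y39A1A.22. The signal was 91.7 at mrpl-28 (77 bp upstream), 88.1 at mrpl-45 (361 bp upstream), 86.8 at mrpl-47 (31 bp downstream, in its 5′ UTR), 85.6 at mrpl-49 (172 bp upstream) and 84.8 at mrpl-39 (115 bp upstream, in a promoter shared with gly-7). The mrpl-49 peak lies in a divergent promoter shared with the cytosolic ribosomal protein gene rpl-28. In the small subunit, mrps-35 (102.8) shared its summit with sws-1, whose 5′ end was 15 bp away, mrps-17 (96.3) shared a promoter with txdc-9, and mrps-7 (96.1) with Y57G11C.3. The ribosome genes nearest below the thresholded list were mrpl-17 with a candidate of 76.1, mrps-9 with 66.9 and mrps-6 with 63.8. At mrpl-17 the replicates differed, with a rank of 5920 in replicate 1 (signal 24.6) and of 1755 in replicate 2 (signal 52.1).

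Replicate 1 carried more of the ribosome calls than replicate 2. At the 12 bound ribosome genes, the peak ranked from 369 to 2451 in replicate 1 and from 470 to 5909 in replicate 2, and it ranked higher in replicate 2 at 2 of them, mrpl-15 and mrpl-37. The rank of 5909 was at mrpl-28, which had a stronger replicate 2 candidate (rank 3141) 70 bp from its 5′ end. When only the 2508 strongest peaks of replicate 2 were used, 7 of 70 ribosome genes were bound (10%), near the 8.31% of all genes, and with those of replicate 1 the count was 13 of 70 (18.6%), beside 8.88% of all genes. The 12 bound genes were all bound with replicate 1 alone, and 5 of them with replicate 2 alone. The respiratory chain gave 16 of 39 with either replicate alone, and 14 of its 16 bound genes were bound in both. Among the 1245 strongest thresholded peaks the ribosome count was 3 of 70 (4.29%), close to the 4.62% of all genes, and the respiratory count was 7 of 39 (17.9%). With a window of 2000 bp the ribosome count was 21 of 70 (30%), beside 12.4% of all genes. With a window of 500 bp, 8 ribosome genes (11.4%) and 14 respiratory genes (35.9%) were bound, beside 6.39% of all genes. The ribosome share thus stood above that of all genes with replicate 1 and with each window, and close to it with replicate 2 and among the strongest peaks.

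**Figure D3:**
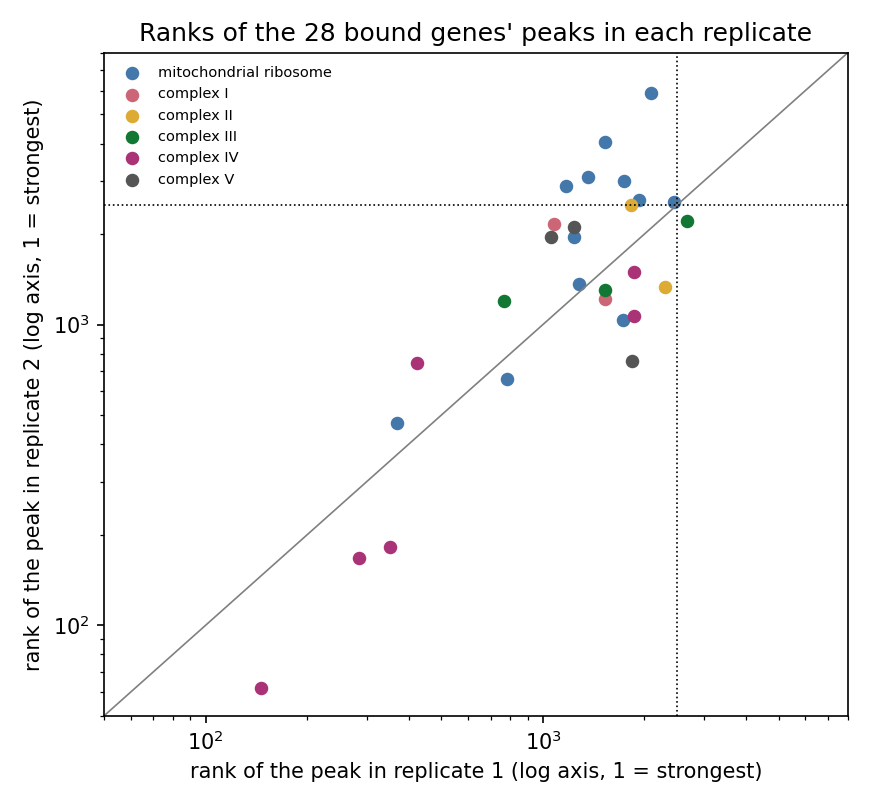
Rank of each bound gene's peak (a candidate summit within 100 bp of the thresholded summit) among nuclear candidates of replicate 1 (x axis) and replicate 2 (y axis), both on log axes with 1 as the strongest. Points above the grey line rank higher in replicate 1, as 10 of the 12 mitochondrial ribosome genes do, and dotted lines mark the last nuclear peak among the 2508 strongest of each replicate.

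Complex IV held the strongest peaks of all members. Of its 7 genes for subunits of the oxidase, 6 were bound (85.7%, 48.7 to 97.4), and of the 8 cox genes for assembly factors none was (0%, upper limit of the interval 32.4%). Over all genes 8.65% were bound, which lies within the interval of the assembly factors and below that of the subunits. The subunit count was 4 of 7 (57.1%) with a 500 bp window, beside 6.39% of all genes. It was also 4 of 7 when only the nearest coding 5′ end counted (6.52% of all genes). Among the 1245 strongest thresholded peaks it was again 4 of 7 (4.62% of all genes). The split into subunits and assembly factors was made from textbook roles, and the difference was not tested. At cox-5B the signal was 306.6 in the thresholded list, where it ranked 83 of 2490, 125.9 in replicate 1 and 180.6 in replicate 2. Its summit lay 19 bp downstream of the 5′ end, in the 5′ UTR, on chromosome I at 9788744. At cox-5A the signal was 241.2, with 103.6 and 139.6 in the replicates, 315 bp upstream of the gene with no other coding 5′ end within 1000 bp. Both peaks were thus high in each replicate and had no second gene in the window.

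The cox-6B peak (233.6, with 95.9 and 136.2 in the replicates) lay 152 bp upstream of the nearest cox-6B 5′ end, in an intron of a longer cox-6B transcript, and 102 bp from the divergent gene Y71H2AM.20. The complex I gene nduc-2 was also within 1000 bp of this summit. The cox-6C peak (169, with 88.3 and 79.8 in the replicates) lay 314 bp upstream, in the A+T-rich window printed above. The remaining bound subunit genes had peaks far from their 5′ ends. The cox-6A summit (107.8) was 798 bp upstream, within 200 bp of the snRNA gene F54D8.7. The cox-7C summit (97.5) was 957 bp downstream, past the end of cox-7C and 36 bp from the 5′ end of F26E4.7. The subunit gene cox-4 was not bound, with a pooled candidate of 64.8 (27.6 and 38.7 in the replicates).

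Assembly factors of complex IV insert heme and copper and guide subunits into the membrane. The strongest pooled candidate was 34.9 at cox-14, 34.2 at cox-15 and 30.5 at cox-10, the latter pair being heme A synthesis genes, then 27.4 at cox-11 and 19.8 at cox-19. The genes cox-16, cox-17 and cox-18 had no pooled candidate. All 5 measured values lay below the 64.8 of cox-4, the lowest subunit gene. In 5 of the 8 assembly factor genes a same-strand coding gene ends within 500 bp of the 5′ end (a tandem arrangement, common within operons), against none of the 7 subunit genes. The part of this arrangement in the different counts was not tested.

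Complex V makes ATP, and its catalytic subunits were among the bound genes. At atp-2, the beta subunit gene, the signal was 124.5, with 45.1 in replicate 1 and 79.4 in replicate 2, 260 bp upstream. At atp-1, the alpha subunit gene, it was 113.7 (60.1 and 48.8 in the replicates), 8 bp from the 5′ end. At atp-5 it was 102.1 (55.2 and 46.6 in the replicates), 269 bp upstream and 50 bp from lmtr-3. Their orders in the replicates differed, since atp-2 was the highest of the 3 in replicate 2 and the lowest in replicate 1. The stalk subunit gene atp-3 missed the thresholded list narrowly, with a pooled candidate of 75.8, and atp-4 had 58.4.

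In complex III, cyc-1 (cytochrome c1) had a signal of 135, with 69.7 and 63.5 in the replicates, 280 bp upstream. The Rieske iron-sulfur protein gene isp-1 had 98.6 (49.7 and 60.6 in the replicates), 265 bp upstream and 69 bp from the divergent gene islo-1. The core protein genes ucr-2.1, ucr-2.2 and ucr-2.3 are paralogs, and only ucr-2.1 was bound. The first was bound with 83.2 (36.6 and 45.2 in the replicates), the lowest signal of any bound member. The second had a pooled candidate of 72.1, with unlike ranks of 1774 in replicate 1 (signal 46) and 7636 in replicate 2 (signal 23.6). The ranks at ucr-2.1 were 2678 and 2212. With replicate 1 alone ucr-2.2 was bound and ucr-2.1 was not, and with replicate 2 alone the reverse held. Which of the pair was bound thus depended on the list used. The pooled candidate at ucr-2.3 was 31.7. The pooled candidate was 31.5 at ucr-11 and 25 at the other core protein gene, ucr-1.

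Complex II, succinate dehydrogenase, also had a bound and an unbound paralog. The flavoprotein gene sdha-1 was bound with 105.8 (39.7 and 59.5 in the replicates), 191 bp upstream and within 200 bp of the snoRNA gene D2021.6, while sdha-2 had a candidate of 28.7. The membrane anchor gene mev-1 was bound with 86.7 (45.2 and 42.1 in the replicates), 107 bp upstream. The iron-sulfur subunit gene sdhb-1 and the second anchor gene sdhd-1 had candidates of 24.7 and 29.1. In complex I, the NADH-binding flavoprotein gene nuo-1 was bound with 115.8 (49.8 and 62.9 in the replicates), 263 bp upstream in a divergent promoter shared with the cytosolic ribosomal protein gene rpl-36.A. The core subunit gene nuo-2 was bound with 109 (59.4 and 46 in the replicates), 146 bp upstream. Low pooled candidates were listed at gas-1 (26.9), nuo-3 (26.8), nuo-4 (22.8) and nuo-6 (18.2), and none at nuo-5.

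Summits of bound members lay mostly upstream of the genes, as did those of all bound genes (1495 of 1727). Of the 28, 24 were upstream of the member's nearest 5′ end, 19 were within 300 bp of it and 6 were more than 500 bp away, with a median distance of 259 bp beside 280 bp over all bound genes. The member's own 5′ end was the nearest coding 5′ end for 19 (8 of 12 in the ribosome, 11 of 16 in the respiratory chain). Over all genes this held for 1292 of the 1727 bound. At the other 9 the nearest 5′ end belonged to a neighbour: mrpl-12, mrpl-37, mrpl-45, mrps-35, isp-1, ucr-2.1, cox-6B, cox-7C and atp-5. Counting only the nearest gene left 8 of 70 ribosome genes (11.4%) and 11 of 39 respiratory genes (28.2%) bound, beside 6.52% of all genes, and left cyc-1 as the bound gene of complex III. With the most upstream 5′ end of each gene alone, the counts were 12 and 15 (38.5%), beside 7.95% of all genes, and without summits near structural RNA genes 11 (15.7%) and 14 (35.9%), beside 8.11%. A second coding gene had a 5′ end within 1000 bp of 19 of the 28 summits, so which gene such a peak belongs to cannot be told apart.

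**Figure D4:**
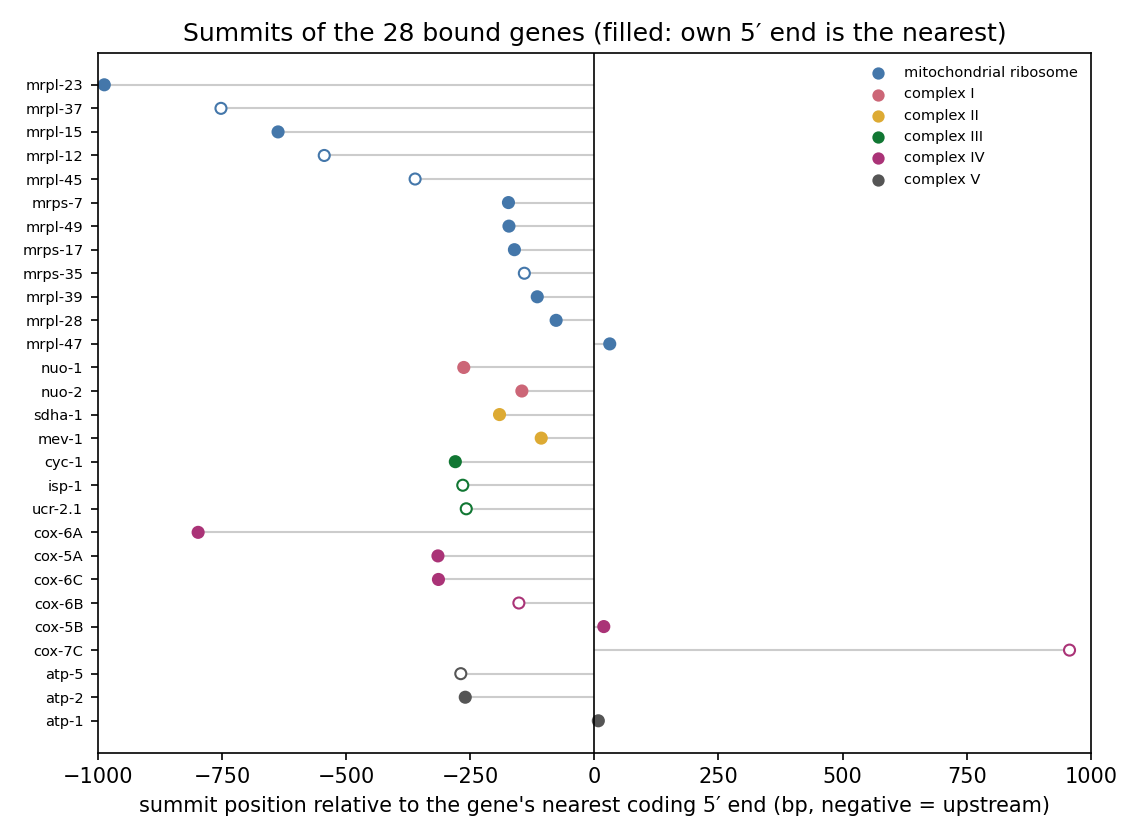
Position of the summit relative to the nearest coding 5′ end of each of the 28 bound genes, in bp with upstream negative, coloured by class. Filled points are genes whose own 5′ end is the nearest coding 5′ end and open points are those with a nearer neighbour; 24 of the summits lie left of 0.

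The arrangement of the genes varied with the calls. A same-strand coding gene ended within 500 bp of the 5′ end of 42 of the 109 members (38.5%), against 19.8% of all protein-coding genes. Of these 42 tandem members 4 were bound (9.52%), namely mrpl-23, nuo-2, sdha-1 and cyc-1, and of the other 67 members 24 were (35.8%). Over all genes the shares were 4.71% and 9.62%. Without tandem genes, 11 of 42 ribosome genes (26.2%) and 13 of 25 respiratory genes (52.0%) were bound. An opposite-strand coding 5′ end lay within 1000 bp of 50 members (45.9%, against 19.4% of all genes), and 18 of these 50 were bound (36.0%, against 18.2% of all such genes). Without these divergent genes 4 of 41 ribosome genes (9.76%) and 6 of 18 respiratory genes (33.3%) were bound, beside 6.33% of all genes. By chromosome, III held 32 members (29.4%, against 13.2% of all genes) and I held 26 (23.9%, against 14.4%), and both had 8 bound. X held 4 members (3.67%, against 13.7% of all genes), all of the respiratory chain, with sdha-1 and ucr-2.1 bound. Of the 2490 nuclear thresholded peaks, 423 lay on III, 447 on I and 548 on X. The share of all genes bound on each chromosome was not counted.

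Other genes of mitochondrial function, from lists that do not overlap the members, had shares on both sides of those above, and are set beside the 8.65% of all genes. In the citric acid cycle, 7 of 16 genes were bound (43.8%, 23.1 to 66.8), each with its own 5′ end as the nearest, led by the isocitrate dehydrogenase gene idhg-1 (351), the succinyl-CoA synthetase gene sucl-1 (184.7) and suca-1 (116.6). Of the further complex I genes, 6 of 28 were bound (21.4%, 10.2 to 39.5), namely ndua-2 (243.1), nduc-2 (233.6, the summit of cox-6B), nduf-11 and nduf-2.2 (both 103.9), ndua-8 (86) and ndub-8 (79.8). The gene's own 5′ end was the nearest for only 3 of these 6. Protein import had 4 of 16 bound, the chaperone genes hsp-60 (284) and hsp-6 (104) and the import genes tomm-20 (167.3) and tin-9.2 (81.4). For 3 of these 4, all but tomm-20, another gene's 5′ end was nearer.

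Further ATP synthase genes had 2 of 7 bound (28.6%, 8.22 to 64.1), mai-1 with 95.4 and asg-2 with 89.5. Of the cytochrome c genes cyc-2.1 was bound (101.5) and cyc-2.2 was not. In mitochondrial gene expression 2 of 19 were bound (10.5%), the glutamyl-tRNA synthetase gene ears-2 with a signal of 443.9 (226.9 and 213.8 in the replicates) and the elongation factor gene gfm-1 (84.4). The mitochondrial stress response had 1 of 9, clpp-1 (100.1), whose summit was nearer to mdt-22. None of 8 ubiquinone synthesis genes was bound. The interval of mitochondrial gene expression was 2.94 to 31.4%, and that of the stress response (11.1%) was 1.99 to 43.5%. For ubiquinone synthesis (0%) it was 0 to 32.4%. Each of these intervals, and that of the further ATP synthase genes, holds the 8.65% of all genes, and lists this small cannot place a share above or below it. Differences between these lists were not tested.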

How the data were processed

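The authors deposited peak lists called on each replicate, on both replicates together and after thresholding by irreproducible discovery rate, per the text that accompanies the files. It derives the candidate lists from the replicates' alignments and 1 further file that it does not describe; the labels name a possible control experiment. The deposited signal value of a peak is on a scale set per list and served only for ranks and descriptions inside 1 list. Neither aligner nor peak caller is given in the sources used here. Read depth was not analysed here, so the counting error of a signal is unknown. The ce10 lists and the control experiment were not used here.

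The ce11 lists were joined to Ensembl release 115 and RefSeq sequence of WBcel235, which has ce11 coordinates, with Python 3.11.15, pandas 2.3.3 and SciPy 1.17.1. Mitochondrial peaks were left out of all counts of genes. Replicate values at a bound gene come from the strongest candidate summit within 100 bp of the thresholded one. At an unbound member they come from the strongest candidate of that replicate within 1000 bp of a coding 5′ end. The peak assignment was tested on simulated summits. No statistical test between groups of genes was run; shares have 95% Wilson intervals. The members, lists and alternatives were chosen with earlier results of these data known. The text names every bound member, the 3 strongest unbound members of the ribosome and of complex IV, every member of the other complexes, the genes nearest to bound summits, and up to 4 of the strongest bound genes of each further list. The other neighbouring genes, the other cox genes, mrpl-18, cyc-2.2, ndua-8, ndub-8 and the mitochondrial genes were named after their values were seen. Of the list symbols, 6 of the mitochondrial gene expression list were not matched in the annotation. Both replicates are labelled as separate biological replicates.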

Additional observations from a re-analysis of the deposited data

How the results depend on the processing

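Counts of bound members stayed within 1.5 times of the reported count in 61 of 82 recomputations and counts with a candidate in 30 of 32. The mitochondrial ribosome had 21 of 70 genes bound with a 2000 bp window, beside 12.4% of all genes. Complex III had 1 of 7 when only the nearest 5′ end counted, beside 6.52%. With the 1245 strongest thresholded peaks, 3 of 70 were bound in the ribosome and 7 of 39 in the respiratory chain, beside 4.62% of all genes. By complex, these were 1 of 7 in complex I, 0 of 5 in complex II, 1 of 7 in complex III and 1 of 5 in complex V. Without divergent genes fewer genes were counted, and 4 of 41 were bound in the ribosome and 6 of 18 in the respiratory chain, beside 6.33% of all such genes. By complex, these were 1 of 3 in complex I, 1 of 2 in complex II and 1 of 3 in complex III. Complex IV had 3 of 9 (all of them subunit genes, 3 of 4), and complex V had 0 of 1. Without tandem genes complex I had 1 of 4 and complex II 1 of 3, beside 9.62% of all such genes. Without summits near structural RNA genes complex II had 1 of 5, beside 8.11% of all genes. With 1 replicate alone, bound counts ran from 7 to 13 of 70 for the ribosome, 1 to 2 of 5 for complex II and 3 to 4 of 5 for complex V. Of all genes 8.88% were bound with replicate 1 and 8.31% with replicate 2. Candidate counts were 3 to 4 of 7 in complex I and 3 to 4 of 5 in complex II, beside 41.6% and 43.4% of all genes in replicates 1 and 2. The respiratory chain (16), complexes I (2), III (3) and IV (6) and the cox subunits (6) had the same count with either replicate. The genes were not all the same: ucr-2.2 and mev-1 were bound with replicate 1 alone, and ucr-2.1 and atp-3 with replicate 2 alone. No paired analysis was possible because there is 1 group. The direction of the contrast, a higher share in the respiratory chain than in the ribosome, held under each alternative; small classes limit what can be said of a single complex.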

Other observations

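The mitochondrial genome, which encodes a few of the respiratory subunits, held 18 of the 2508 thresholded peaks, with signals from 90.6 to 826.1 and a median of 266.7. Of these summits 17 lay in protein-coding genes, and 8 of the 12 coding genes held at least 1. The highest were in ND5 (826.1), COX3 (767.7) and COX1 (676). The candidate lists held 20 mitochondrial peaks in replicate 1 and 18 in replicate 2. Mitochondrial DNA is present in many copies per cell, and the part of copy number in these signals was not tested.

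At mrpl-18, each replicate had a candidate peak strong enough to count as bound by that replicate alone, with a signal of 40.1 (rank 2260) 160 bp from the 5′ end in replicate 1 and of 51.6 (rank 1778) 153 bp away in replicate 2, but the pooled list had no candidate within 1000 bp. Among 1714 nuclear peaks found within 100 bp of each other in the 2508 strongest of both replicates, 9 had no pooled summit within 100 bp and 5 had no overlapping pooled interval.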
